A study of Mus musculus with 12 samples.

Results

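A set of 10 genes that mark haematopoietic antigen-presenting cells was followed through sorted mouse thymic epithelial cells (TEC) in which 34547 genes were measured. It held the macrophage genes Adgre1 and Lyz2, the dendritic cell genes Itgax, Flt3 and Xcr1, the plasmacytoid dendritic cell gene Siglech, the signalling adaptors Fcer1g and Tyrobp, and the B cell genes Cd79a and Ms4a1. The genes were chosen by symbol with their measured levels in these same libraries known, and which comparison weighed most in that choice is not given. Their levels between genotypes in medullary TEC (mTEC) and between the subsets are treated as used in the choice and given as a description with no test. The comparison of genotypes in cortical TEC (cTEC) carries a test, although its values may have been known as well.

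Dendritic cells, macrophages and B cells live in the thymic medulla beside mTEC, where they take up and present self-antigens to developing T cells. mTEC in turn transcribe many genes of other tissues at low levels, a property called promiscuous gene expression and driven in large part by the nuclear protein AIRE. RNA of a haematopoietic gene in a sorted mTEC pool can thus stem from an epithelial cell or from a haematopoietic cell that passed the sort. Bulk RNA does not show from which cell a transcript came.

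RNA was sequenced from 12 libraries in 4 groups of 3, which were WT cTEC, Aβ0/0 cTEC, WT mTEC and Aβ0/0 mTEC. The Aβ0/0 mice lack MHC class II through disruption of H2-Ab1, the gene of its β chain, and the WT mice were bought C57/BL6 animals. The background strain of the Aβ0/0 mice, which came from another laboratory, is not given in the sources used here. Each library came from a pool of 5 to 10 mice that were 4 to 6 weeks old. Cells were sorted as Epcam-positive and CD45-negative, with Ly51 marking cTEC and UEA1 binding marking mTEC, a gate that should leave haematopoietic cells behind. Polyadenylated RNA was copied with a low input kit that does not keep the strand. A replicate is a pool, so that a p-value measures the spread between pools and not between mice. In bulk samples, fewer cells of a type and less RNA per cell cannot be told apart.

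The libraries held 21.6 M to 35.9 M estimated counts assigned to genes. Levels are given in TPM, a unit that takes account of transcript length and library size. H2-Ab1 was lower in both Aβ0/0 groups, at 3153 to 3956 TPM against 9055 to 9640 in cTEC and at 2469 to 3541 against 11510 to 11970 in mTEC, and RNA from the disrupted gene thus remained. The subset labels were matched by Psmb11, a proteasome subunit of cTEC, at 172.1 to 442.0 TPM in cTEC and 5.84 to 12.9 in mTEC, and by Aire, at 56.0 to 626.2 TPM in mTEC and 0.199 to 7.87 in cTEC. Single libraries stood apart in ways that touch the genes described here, among them these 4. WT cTEC replicate 1 held 55.2 TPM of Elane, a neutrophil elastase, where the other 5 cTEC libraries held at most 0.373. Aβ0/0 mTEC replicate 1 held 1113 TPM of Klk1, a glandular kallikrein, where the other 2 held 186.5 and 64.4. Aβ0/0 cTEC replicate 2 was the only cTEC library with any count of Itgax. WT cTEC replicate 3 held nearly all cTEC counts of Adgre1, and without it 7572 in place of 4997 genes differed between the subsets in WT.

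In WT mTEC every one of the 10 genes was detected in every pool, and in no other group was that so. The share of all genes detected in this way is not given, and the 10 genes were chosen with these levels known. Of the 10 genes, 9 had all 3 WT mTEC libraries above all 3 Aβ0/0 mTEC libraries, and Lyz2 was the exception. The background of that pattern was 17.4% of the 27501 genes detected in mTEC, and since the genes were chosen with these levels known the count is no evidence of its own. All 10 genes lay higher in every WT mTEC library than in every WT cTEC library, a pattern held by 23.3% of genes. In Aβ0/0 TEC only Lyz2 and Flt3 lay higher in every mTEC library than in every cTEC library, against a background of 9.53%. WT mTEC had the highest mean of the 4 groups for every gene but Itgax, which was highest in Aβ0/0 cTEC. It overlapped the next group for Lyz2, Itgax and Siglech. Below WT mTEC, groups next to each other in the order of means overlapped for all genes with the exception of WT and Aβ0/0 cTEC for Ms4a1. Genes at 0 numbered 2, 2 and 3 in WT cTEC, 5, 3 and 3 in Aβ0/0 cTEC and 3, 2 and 3 in Aβ0/0 mTEC. Lyz2 alone made up 76.8% to 99.4% of the summed TPM of the 10 genes in a library. Without Lyz2 the other 9 genes summed to 74.0 to 97.1 TPM in WT mTEC, 4.65 to 12.2 in Aβ0/0 mTEC, 6.82 to 9.85 in WT cTEC and 1.45 to 9.78 in Aβ0/0 cTEC.

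**Figure D1:**
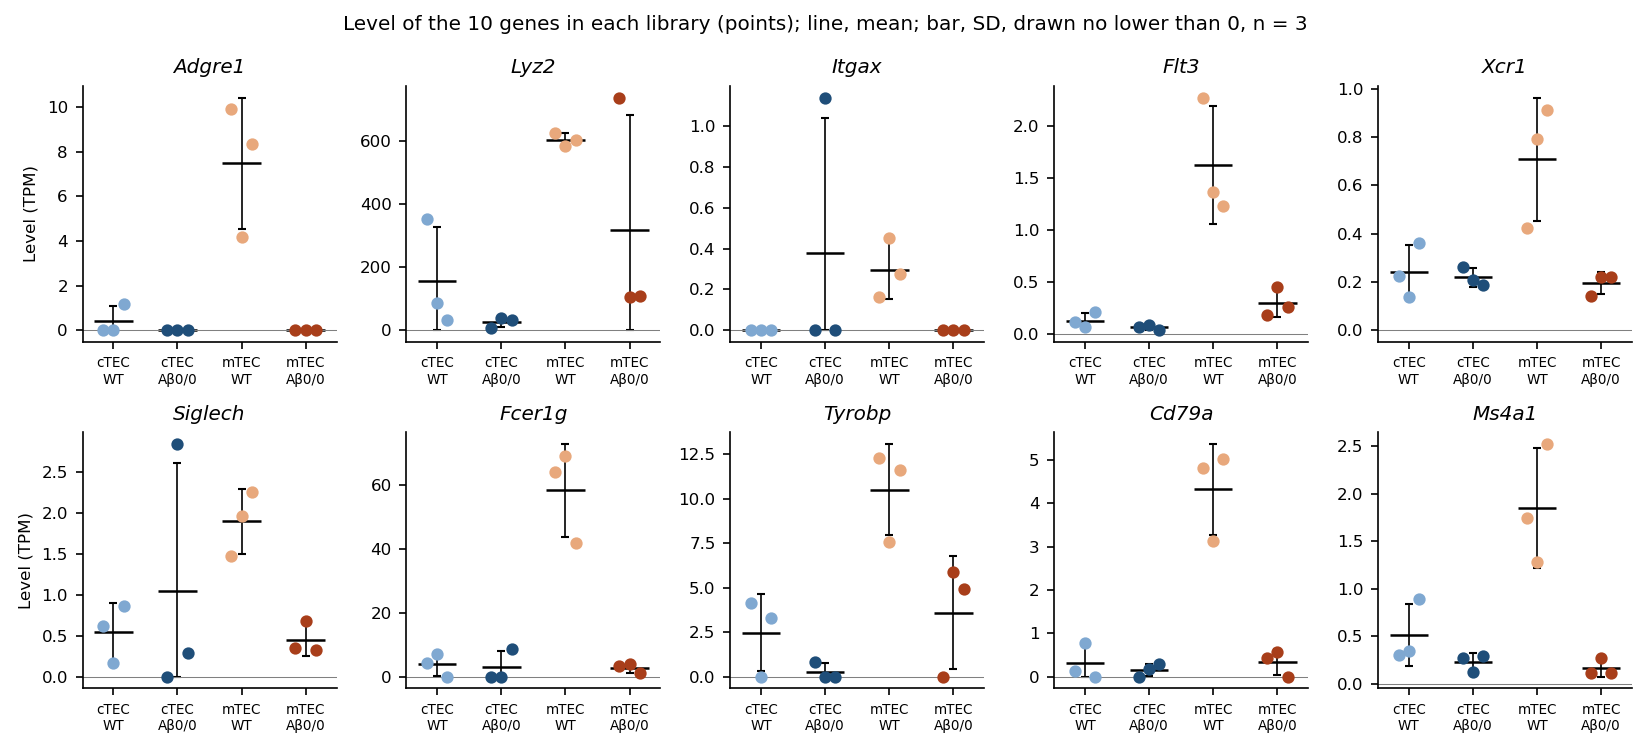
Level in TPM of each of the 10 genes in each library, 1 panel a gene with its own linear axis; points are the 3 libraries of a group, the line is their mean and the bar the SD, drawn no lower than 0. The WT mTEC points lie above all Aβ0/0 mTEC points for 9 genes, while Lyz2 overlaps through 1 Aβ0/0 mTEC library at 739.5 TPM.

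Adgre1 (ENSMUSG00000004730, GRCm38 chr17:57358691-57483527, plus strand) encodes F4/80, the adhesion receptor by which mouse macrophages are stained. WT mTEC held 9.89, 4.19 and 8.33 TPM, from 523, 375 and 690 estimated counts. All 3 Aβ0/0 mTEC and all 3 Aβ0/0 cTEC libraries held 0. In WT cTEC the level was 0, 0.0151 and 1.19 TPM, and the last value came from 94 counts in replicate 3. The groups of mTEC did not overlap, and the WT mean of 7.47 ± 2.95 TPM (SD, n = 3) was at least 177-fold higher when Aβ0/0 mTEC was set to a floor of 3 counts per library. WT mTEC also exceeded WT cTEC 18.6-fold in mean TPM, and without WT cTEC replicate 3 that group's mean was 0.00754 TPM. Nearly all counts fell on Adgre1-202, a protein-coding transcript, and no 31-base stretch of the gene occurred in another gene's transcripts, so its reads could not be shared with a copy.

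Lyz2 (ENSMUSG00000069516, chr10:117277331-117282321, minus strand) encodes the lysozyme of macrophages and granulocytes, and its neighbour Lyz1 (chr10:117287797-117292868, minus strand) encodes the lysozyme of intestinal Paneth cells. Their coding sequences are both 444 bases long and differ at 22 of them, an identity of 95.05%. The first 120 coding bases of each, read from the GENCODE M21 transcripts, are shown because they carry 11 of these differences (capitals).
Lyz2: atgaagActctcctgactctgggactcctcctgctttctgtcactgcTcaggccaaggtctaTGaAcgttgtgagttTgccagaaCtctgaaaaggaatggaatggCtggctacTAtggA
Lyz1: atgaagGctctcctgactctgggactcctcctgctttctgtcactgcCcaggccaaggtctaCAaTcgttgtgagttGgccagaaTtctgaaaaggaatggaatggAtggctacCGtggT
The longest identical coding stretch was 118 bases, and 422 of the 1286 stretches of 31 bases in Lyz2 (32.8%) also occurred in Lyz1. The authors' transcript counter splits reads that fit both copies, and the error this adds to the values of Lyz2 was not measured.

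Lyz2 was the most abundant of the 10 genes in every library. WT mTEC held 626.5, 585.1 and 605.4 TPM, a spread of 20.7 (SD) around a mean of 605.7. Aβ0/0 mTEC held 739.5, 104.4 and 107.5 TPM. Replicate 1 of Aβ0/0 mTEC thus lay above every WT pool while the other 2 lay below every WT pool, and the groups overlapped. The fitted log2 difference (WT minus Aβ0/0) was 0.96 ± 0.67 (SE), and 2.29 without that replicate. In WT cTEC the level was 352.7, 86.4 and 31.5 TPM, and in Aβ0/0 cTEC it was 7.19, 38.3 and 32.5 TPM. WT cTEC replicate 1, the library with Elane, also held 136.8 TPM of S100a8 and 89.8 of S100a9, calcium-binding proteins of granulocytes. Without it the mean of WT cTEC was 58.9 TPM in place of 156.8. The part of granulocyte RNA in this value was not tested.

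Lyz1 moved with Lyz2 in some pools and not in others. In WT mTEC it held 408.7, 376.8 and 340.9 TPM, and the ratio of Lyz2 to Lyz1 was 1.53, 1.55 and 1.78. In Aβ0/0 mTEC it held 1009, 232.1 and 263.0 TPM, and the ratio was 0.733, 0.450 and 0.409. The ratios of the genotypes did not overlap, and Lyz1 was the higher of the pair in every Aβ0/0 mTEC pool, replicate 1 included. WT cTEC replicate 1 stood at the other end, with 0.354 TPM of Lyz1 and a ratio of 995.1, where the other 5 cTEC libraries had 1.45 to 14.0.

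Lyz1 and Lyz2 also resemble each other before the start of transcription. The stretches below are the bases before each gene up to its first GENCODE base, from RefSeq promoters (GRCm38.p6), together with that of Itgax, whose pattern over the libraries differed most from the other members. Capitals mark GGAAGT or its reverse complement ACTTCC, the core letters bound by ETS family factors such as PU.1, which is encoded by Spi1 and controls myeloid and B cell genes.
Lyz2, chr10:117282322-117282522, minus strand: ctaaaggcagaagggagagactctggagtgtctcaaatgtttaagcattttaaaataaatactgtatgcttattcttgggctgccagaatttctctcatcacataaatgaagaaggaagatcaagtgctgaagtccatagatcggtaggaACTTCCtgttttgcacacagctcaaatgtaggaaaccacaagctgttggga
Lyz1, chr10:117292869-117293118, minus strand: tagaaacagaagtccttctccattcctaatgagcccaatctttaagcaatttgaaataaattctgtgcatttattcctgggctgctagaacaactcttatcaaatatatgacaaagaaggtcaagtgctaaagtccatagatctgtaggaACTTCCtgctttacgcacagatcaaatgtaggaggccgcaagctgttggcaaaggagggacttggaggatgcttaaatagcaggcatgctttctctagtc
Itgax, chr7:128129300-128129546, plus strand: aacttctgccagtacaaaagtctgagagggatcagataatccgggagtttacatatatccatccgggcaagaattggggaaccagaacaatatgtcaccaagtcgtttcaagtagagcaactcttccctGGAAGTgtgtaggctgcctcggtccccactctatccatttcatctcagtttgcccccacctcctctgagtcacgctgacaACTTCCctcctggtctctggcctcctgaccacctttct
Searching both strands of the 250 bases before the RefSeq start, 6 of the 7 members with an entry (Lyz2, Itgax, Flt3, Xcr1, Siglech and Cd79a, not Fcer1g) held the motif, against 19.7% of 32851 promoters of that length. The motif was chosen with these promoters in view, so the count is a description of letters. Spi1, named here after its values were seen, held 10.3, 5.72 and 7.76 TPM in WT mTEC and 2.32, 0 and 1.27 in Aβ0/0 mTEC. These groups did not overlap, and the difference did not pass the test (edgeR, adjusted p = 0.524). In cTEC it held at most 1.38 TPM.

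Among the dendritic cell genes, Itgax (ENSMUSG00000030789, chr7:128129547-128150657, plus strand) encodes CD11c, the integrin α chain used to stain dendritic cells. It was the lowest of the 10 genes in WT mTEC, at 0.163, 0.450 and 0.275 TPM, and was 0 in all Aβ0/0 mTEC and all WT cTEC libraries. The WT mTEC mean was at least 8.24-fold above Aβ0/0 mTEC and at least 8.06-fold above WT cTEC at a floor of 3 counts per library. Aβ0/0 cTEC replicate 2 held 1.14 TPM, from 129 counts, more than any WT mTEC pool, while the other 2 Aβ0/0 cTEC pools held 0. The same library carried the highest Siglech of all 12. Of the 31-base stretches of Itgax, 10.7% occurred also in Itgad, another integrin α chain, which held 1.01 to 3.48 TPM in WT mTEC, 0 to 2.66 in Aβ0/0 mTEC and 0 to 0.378 in Aβ0/0 cTEC.

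Flt3 (ENSMUSG00000042817, chr5:147330741-147400489, minus strand) encodes the receptor of the cytokine that sustains dendritic cells and their progenitors. Its level was 2.27, 1.37 and 1.23 TPM in WT mTEC and 0.185, 0.453 and 0.265 in Aβ0/0 mTEC, a ratio of means of 5.39. The fitted log2 difference was 2.13 ± 0.88 (SE), and 2.72 without Aβ0/0 mTEC replicate 2. It never exceeded 0.211 TPM in cTEC. The transcripts behind these values differed. Flt3-201, which has 24 exons and codes for the protein, held 118.3, 109.1 and 83.2 counts in the WT mTEC pools and 0 in the other 9 libraries. Flt3-202, a processed transcript with 10 exons and no annotated protein, held 4.05 to 49.6 counts in all 12 libraries. Where they part is shown as 40 shared bases in lower case followed by 40 bases of each one's next exon in capitals, from GENCODE M21.
Flt3-201, chr5:147366919-147366958 then chr5:147358012-147358051, minus strand: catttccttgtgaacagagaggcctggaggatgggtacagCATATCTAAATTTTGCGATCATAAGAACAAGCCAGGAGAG
Flt3-202, chr5:147366919-147366958 then chr5:147365036-147365075, minus strand: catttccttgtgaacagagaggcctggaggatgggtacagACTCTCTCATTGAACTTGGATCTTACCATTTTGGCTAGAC
The transcripts are readily told apart, since 61.3% and 64.0% of their 31-base stretches were absent from the other one. The difference between genotypes in mTEC was thus one of the coding transcript, and Flt3-202 held 19.2, 32.5 and 35.1 counts in WT mTEC against 13.2, 49.6 and 23.1 in Aβ0/0 mTEC, which overlap. The higher level of Flt3 in Aβ0/0 mTEC than in Aβ0/0 cTEC rested on Flt3-202 alone.

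Xcr1 (ENSMUSG00000060509, chr9:123852315-123862029, minus strand) encodes the chemokine receptor of cross-presenting dendritic cells. It was the flattest of the 10 genes, with 11.5 to 105.0 counts in every library. WT mTEC held 0.423, 0.789 and 0.912 TPM and Aβ0/0 mTEC 0.142, 0.221 and 0.221. cTEC of both genotypes lay between 0.138 and 0.361 TPM, at the level of Aβ0/0 mTEC. The separation of WT mTEC from WT cTEC held in TPM and was lost in the authors' rlog values and in counts scaled to library size by TMM (CPM). The single annotated transcript has 4453 bases, so the gene's reads cannot be divided between forms.

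Siglech (ENSMUSG00000051504, chr7:55768178-55778925, plus strand) encodes a sialic acid binding receptor of plasmacytoid dendritic cells. Its level was 1.47, 1.97 and 2.26 TPM in WT mTEC and 0.349, 0.678 and 0.332 in Aβ0/0 mTEC. WT cTEC held 0.614, 0.169 and 0.860 TPM, and Aβ0/0 cTEC 0, 2.84 and 0.285. Protein-coding transcripts took 39.6 to 90.3 counts in the WT mTEC pools and 1 count over all 3 Aβ0/0 mTEC pools, while Siglech-204, a form marked for nonsense-mediated decay, took 11.7 to 38.7 counts there. Siglech-202 and Siglech-204 differ in only 17.1% and 9.63% of their 31-base stretches, so this split is less certain than that of Flt3. Aβ0/0 cTEC replicate 2 held 113.2 coding counts, above each WT mTEC pool.

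**Figure D2:**
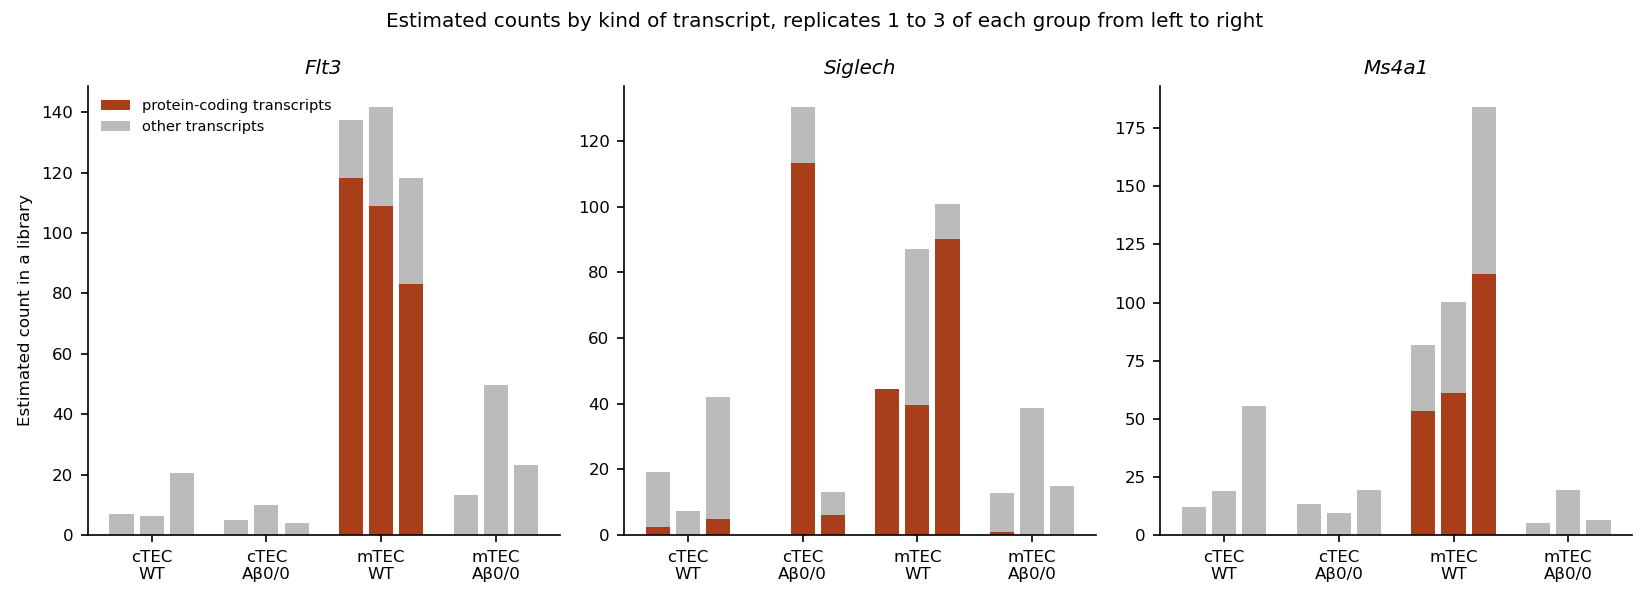
Estimated counts of Flt3, Siglech and Ms4a1 in each library, stacked by kind of transcript (red, protein-coding; grey, other), with replicates 1 to 3 of each group from left to right. Coding counts of Flt3 and Ms4a1 are 0 outside WT mTEC, and those of Siglech reach 113.2 in Aβ0/0 cTEC replicate 2.

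The adaptors Fcer1g and Tyrobp carry immunoreceptor tyrosine-based activation motifs (ITAM) and pass on the signals of Fc receptors and of myeloid and natural killer cell receptors. Fcer1g (ENSMUSG00000058715, chr1:171229572-171234365, minus strand) held 64.0, 69.0 and 41.8 TPM in WT mTEC, below Lyz2 alone. Aβ0/0 mTEC held 3.42, 4.10 and 1.04 TPM, a ratio of means of 20.4 and a fitted log2 difference of 4.19 ± 0.69 (SE). In WT cTEC the gene was found in 2 of 3 pools, at 4.33, 7.24 and 0 TPM, and in Aβ0/0 cTEC in 1 of 3, at 0, 0 and 8.69 TPM. The mean of Aβ0/0 mTEC, 2.85 TPM, was near the 2.90 of Aβ0/0 cTEC, which came from replicate 3 alone. Without that library every Aβ0/0 mTEC pool lay above the remaining Aβ0/0 cTEC pools. No 31-base stretch of the gene occurred in another gene.

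Tyrobp (ENSMUSG00000030579, chr7:30413760-30417585, plus strand) encodes DAP12. It held 12.3, 7.58 and 11.6 TPM in WT mTEC and 0, 5.90 and 4.90 in Aβ0/0 mTEC, a ratio of means of 2.92 against 20.4 for Fcer1g. The fitted log2 difference of Tyrobp was 1.30 ± 1.51 (SE), and 0.71 without Aβ0/0 mTEC replicate 1, 1.99 without replicate 2 and 2.17 with the replicate block. WT cTEC held 4.12, 0 and 3.31 TPM, and Aβ0/0 cTEC 0.847, 0 and 0. Within WT mTEC pools Fcer1g exceeded Tyrobp 5.20-, 9.11- and 3.60-fold. In the Aβ0/0 mTEC pools with both genes the ratio turned to 0.696 and 0.212. In the remaining pool, replicate 1, Fcer1g held 3.42 TPM and Tyrobp 0. The ratio thus fell in those pools and not in replicate 1, and the difference between the genes was not tested.

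The receptors that use these adaptors differed from each other. Ms4a2, the β chain of the IgE receptor that assembles with Fcer1g, held 4.71, 3.36 and 2.50 TPM in WT mTEC and 0.0472, 0 and 0 in Aβ0/0 mTEC, and was higher in WT by edgeR (adjusted p = 0.0414). Fcer1a, the α chain of the same receptor, held 1.62, 2.90 and 2.05 TPM in WT mTEC and 0, 0 and 17.7 in Aβ0/0 mTEC. Trem2, a receptor paired with Tyrobp, held 26.2, 36.5 and 38.4 TPM in WT mTEC and 17.4, 14.4 and 4.73 in Aβ0/0 mTEC, which did not overlap and did not pass the test (adjusted p = 0.386). Of 20 genes of the ITAM pathway 10 had all WT mTEC pools above all Aβ0/0 mTEC pools (background 17.4%), and 5 of the 15 tested passed edgeR's test, all higher in WT (background 5.32%). These calls were lost with the replicate block, with all 12 libraries in the fit and without any 1 of the WT mTEC libraries or Aβ0/0 mTEC replicate 3. Without the filter on low counts, 2 genes over all marker lists were called. The kinase gene Btk was among the 5, at 0.640, 1.01 and 0.499 TPM against 0 in all 3 Aβ0/0 pools (edgeR, adjusted p = 0.0352). Blnk, an adaptor that Btk's pathway uses in B cells, held 80.1 to 123.1 TPM in WT and 58.3 to 84.0 in Aβ0/0 mTEC (edgeR, adjusted p = 0.423).

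The B cell genes were Cd79a and Ms4a1. Cd79a (ENSMUSG00000003379, chr7:24897381-24902197, plus strand) encodes the Igα chain of the B cell receptor complex. WT mTEC held 4.82, 3.12 and 5.03 TPM, and Aβ0/0 mTEC 0.442, 0.576 and 0, a ratio of means of 12.8. The fitted log2 difference was 3.49 ± 1.46 (SE), and 2.91 to 4.37 without single libraries, the highest of these without Aβ0/0 mTEC replicate 2. cTEC of either genotype held at most 0.784 TPM. Its partner Cd79b, the Igβ chain, held 21.6, 17.9 and 27.7 TPM in WT mTEC and 29.0, 14.0 and 6.66 in Aβ0/0 mTEC, which overlap. The ratio of Cd79a to Cd79b was 0.223, 0.174 and 0.182 in WT mTEC and 0.0153, 0.0412 and 0 in Aβ0/0 mTEC. Cd79b thus lay above Cd79a in every mTEC pool, and the partners of 1 complex differed between genotypes in unequal measure. Of the 31-base stretches of Cd79a 12.2% occurred also in Gm32220, which was at 0 in all mTEC pools and at most 1.47 TPM in WT cTEC.

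Ms4a1 (ENSMUSG00000024673, chr19:11249675-11266241, minus strand) encodes CD20. It held 1.74, 1.28 and 2.52 TPM in WT mTEC and 0.117, 0.275 and 0.114 in Aβ0/0 mTEC, a ratio of means of 10.9. On the log2 scale the fit gave 3.37 ± 0.97 (SE), and 4.11 without Aβ0/0 mTEC replicate 2. WT cTEC held 0.308, 0.346 and 0.892 TPM and Aβ0/0 cTEC 0.272, 0.125 and 0.298. Like Flt3 it split by transcript. The coding Ms4a1-201 held 53.2, 61.0 and 112.4 counts in WT mTEC and 0 in the other 9 libraries. The forms with retained introns, Ms4a1-202 and Ms4a1-203, held all the counts there, together 5.37 to 55.5 in a library. The point where Ms4a1-202 runs on into the intron is shown in the same way, with 40 shared bases in lower case and each transcript's own next 40 in capitals.
Ms4a1-201, chr19:11254455-11254494 then chr19:11253241-11253280, minus strand: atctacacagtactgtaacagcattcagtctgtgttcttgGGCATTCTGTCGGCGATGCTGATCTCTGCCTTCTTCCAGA
Ms4a1-202, chr19:11254455-11254494 then chr19:11254415-11254454, minus strand: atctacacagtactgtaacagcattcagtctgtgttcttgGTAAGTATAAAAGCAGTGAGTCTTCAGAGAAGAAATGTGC
Of their 31-base stretches, 58.9% and 50.7% were absent from the other one. The retained-intron form was higher in WT mTEC as well, where Ms4a1-202 held 26.7, 39.3 and 65.3 counts against 5.37, 17.6 and 5.35 in Aβ0/0 mTEC. The kit does not keep the strand, and an antisense gene over Ms4a1 (4930526L06Rik) overlaps none of its exons.

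**Figure D3:**
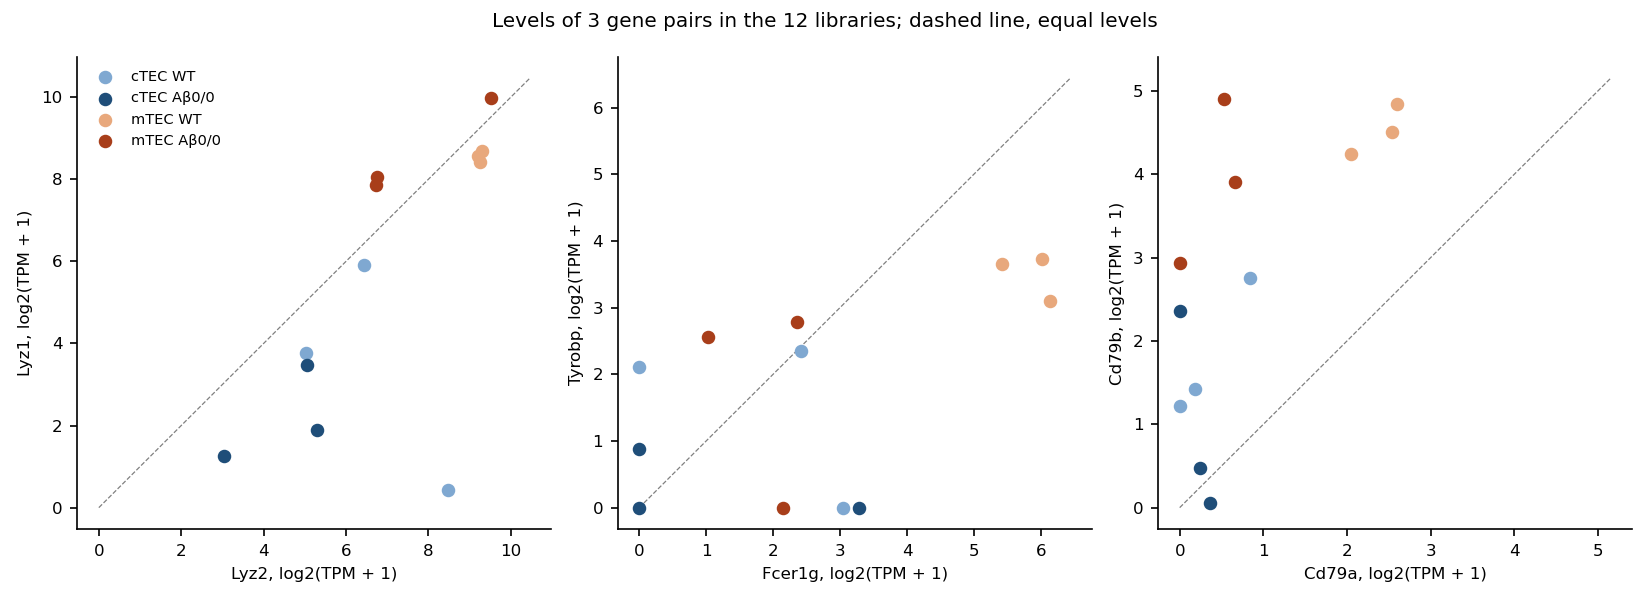
Levels of Lyz2 and Lyz1, of Fcer1g and Tyrobp and of Cd79a and Cd79b in the 12 libraries, as log2(TPM + 1) on both axes, coloured by group; the dashed line marks equal levels. The Aβ0/0 mTEC points lie above the line for Lyz1 over Lyz2, with ratios of 0.409 to 0.733, and the WT mTEC points lie below it, at 1.53 to 1.78.

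Genotypes of cTEC were compared with edgeR's quasi-likelihood test over all genes that passed the filter on low counts. No member passed it at an adjusted p of 0.05, and 0.0194% of the 15432 genes tested did. The filter kept 5 of the 10 genes, and Adgre1, Itgax, Flt3, Tyrobp and Cd79a had too few counts. Among the 5 genes kept, Lyz2 had the largest difference, with a log2 fold change (WT over Aβ0/0) of 2.43 ± 0.84 (SE). Its unadjusted p was 0.0170 and its adjusted p 1.0 by edgeR. The log2 fold change was 1.15 without WT cTEC replicate 1, the library with Elane. For Ms4a1 the log2 fold change was 1.41 ± 1.18, for Xcr1 0.33 ± 1.12, for Fcer1g 0.32 ± 2.25 and for Siglech -0.64 ± 1.75, each with an adjusted p of 1.0 by edgeR. One member was under an unadjusted p of 0.05. Without the filter all 10 genes were tested and none passed, with 3 under an unadjusted p of 0.05. DESeq2 gave 8 of them an adjusted p and called none, with 1 under an unadjusted p of 0.05. The share of all genes under such a p is not given, so these counts have no background. The errors are wide, and a difference of several-fold in cTEC was not detectable for these genes.

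By levels alone, 1 of the 10 genes, Ms4a1, had all WT cTEC libraries above all Aβ0/0 cTEC libraries in TPM, against 3.08% of genes. In TMM-scaled CPM no member did, in rlog values Adgre1 did instead, and in protein-coding transcripts none did. The log2 fold change of Ms4a1 in cTEC fell to 0.39 without WT cTEC replicate 3. The direction of Xcr1, Siglech and Fcer1g in cTEC turned when a single library was left out. For Siglech that library was Aβ0/0 cTEC replicate 2, without which the log2 fold change was 2.31. Of the listed marker genes described below, 125 were tested in cTEC and edgeR called 0, with 17 under an unadjusted p of 0.05, again with no background. DESeq2 called 6 listed genes and 121 over all genes.

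Markers of the cell types that these genes come from were set beside them, with 10 lists of 16 to 20 genes. The lists were chosen with earlier results of these data known, so counts above a background are a description here. In the macrophage list 8 of 20 genes had WT mTEC wholly above Aβ0/0 mTEC, in the conventional dendritic list 10 of 20, in the plasmacytoid list 6 of 20 and in the B cell list 8 of 19. The same count was 5 of 20 for pan-leukocyte genes, 4 of 20 for thymocyte genes, 11 of 16 for granulocyte genes, 6 of 20 for epithelial genes and 14 of 20 for tissue-restricted antigens. Over all lists it was 81 of 189 genes, read against the 17.4% given above. By edgeR 24 of 177 listed genes tested were called higher in WT mTEC and none lower, where 5.32% of all genes tested were called higher. Leaving out any WT mTEC library or Aβ0/0 mTEC replicate 3, adding the replicate block or fitting all 12 libraries took that count to 0, and without Aβ0/0 mTEC replicate 2 it was 7 and without the filter on low counts 2. Without Aβ0/0 mTEC replicate 1, 36 were higher in WT and 2 in Aβ0/0, and with DESeq2 39 were higher in WT and 1 in Aβ0/0. Some of the 24, such as Fcmr and Ngp, held 0 in every Aβ0/0 mTEC pool and passed the filter through the WT pools. The median log2 fold change in mTEC was 1.09 for the macrophage list, 1.57 for the conventional dendritic, 0.36 for the plasmacytoid, 0.76 for the B cell, 2.07 for the granulocyte and 1.84 for the tissue-restricted list, 0.43 for the ITAM pathway, 0.19 for pan-leukocyte, 0.47 for thymocyte and 0.027 for epithelial genes, against 0.0026 over all genes tested.

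Defining markers of the same cells differed from gene to gene. C1qc, a complement chain of macrophages, held 13.9, 5.69 and 10.4 TPM in WT mTEC and 0.0496, 0 and 0 in Aβ0/0 mTEC (edgeR, adjusted p = 0.0352). Csf1r, the receptor that macrophages need to survive, held 5.37, 2.18 and 1.67 TPM in WT mTEC and 2.14, 4.29 and 0 in Aβ0/0 mTEC, which overlap. Zbtb46, a transcription factor of conventional dendritic cells, held 6.99 to 13.5 TPM in WT mTEC and 5.73 to 15.2 in Aβ0/0 mTEC. Clec9a, the partner marker of Xcr1 on cross-presenting dendritic cells, was at 0 in 10 libraries and at most 0.182 TPM. Pax5, the B cell commitment factor, held 0.683, 0.503 and 1.70 TPM in WT mTEC and at most 0.190 in Aβ0/0 mTEC. Csf1r, Zbtb46, Clec9a and Pax5 were singled out as defining markers after their values were seen.

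Ptprc, which encodes CD45, the protein the sort selected against, held 3.77, 3.70 and 4.79 TPM in WT mTEC and 2.35, 4.46 and 3.79 in Aβ0/0 mTEC, and thus overlapped where 9 of the 10 genes did not. In cTEC it was higher, at 5.53 to 18.2 TPM in WT and 18.2 to 41.3 in Aβ0/0. Thymocyte genes followed the cTEC pattern, with 13 of 20 wholly higher in WT cTEC than in WT mTEC (background 11.1%) and 16 of 20 in Aβ0/0 (background 11.3%). The summed level of the thymocyte list was 391.9 to 903.7 TPM in WT cTEC, 995.5 to 1152 in Aβ0/0 cTEC, 160.2 to 259.3 in WT mTEC and 59.0 to 201.6 in Aβ0/0 mTEC. The macrophage list summed to 511.0 to 606.4 TPM in WT mTEC and 326.6 to 1140 in Aβ0/0 mTEC, the conventional dendritic list to 527.8 to 758.3 and 276.1 to 609.8, the plasmacytoid list to 2254 to 2304 and 1421 to 3379, and the B cell list to 366.5 to 444.2 and 203.8 to 393.8. In cTEC of both genotypes these lists summed to 98.5 to 162.8, 121.9 to 243.6, 1193 to 1587 and 118.3 to 595.4 TPM. Of these lists only the macrophage and plasmacytoid ones reached a higher sum in an Aβ0/0 mTEC pool than in every WT mTEC pool. That pool was replicate 1, where Lyz1 made up 1009 of the 1140 TPM and Klk1, which the plasmacytoid list holds, 1113 of the 3379 TPM. The pan-leukocyte list summed to 1925 to 2129 TPM in WT mTEC and 1090 to 1294 in Aβ0/0 mTEC, and the granulocyte list to 1700 to 2403 and 434.2 to 738.0. The tissue-restricted antigens summed to 1916 to 2294 TPM in WT mTEC and 565.0 to 898.4 in Aβ0/0 mTEC. Aire held 626.2, 274.9 and 243.3 TPM against 110.7, 56.0 and 65.2 in the same groups. The sums of the pan-leukocyte, granulocyte and tissue-restricted lists were thus lower in every Aβ0/0 mTEC pool than in every WT mTEC pool. So was the level of Aire, though not each gene of a list. Most of the pan-leukocyte drop lay in Cd52, with means of 827.7 TPM in WT and 241.3 in Aβ0/0 mTEC, and Laptm5, at 351.3 and 141.3. Only 5 of its 20 genes were wholly lower in Aβ0/0 mTEC. Most of the granulocyte drop lay in S100a8, at 1127 and 165.5 TPM, and S100a9, at 331.9 and 68.5. The part of these sums and of Aire in the levels of the 10 genes was not tested. Fewer cells were sorted for every Aβ0/0 mTEC pool than for any WT mTEC pool, so that genotype and cell number cannot be told apart in mTEC.

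Between the subsets, 98 of 179 listed genes tested passed in WT, 71 of them higher in mTEC, where 26.8% of all genes passed. With the replicate block, which keeps the pairing of the sorts, 83 passed, 63 of them higher in mTEC, and 61 did with all 12 libraries in the fit. In Aβ0/0 TEC 42 of 133 passed, 28 of them higher in mTEC, where 5.6% of all genes passed. There 26 did with the replicate block, 74 with DESeq2 and 20 to 27 without single libraries, each of which took the count down by more than 1.5 times. Wholly higher levels in WT mTEC than in WT cTEC were found for 13 of 20 macrophage, 16 of 20 conventional dendritic, 13 of 20 plasmacytoid, 13 of 19 B cell and 19 of 20 tissue-restricted genes (background 23.3%). In Aβ0/0 these counts were 3, 7, 6, 6 and 9 of the same lists (background 9.53%). The reverse, cTEC wholly above mTEC, held for 1, 0, 3, 2 and 0 genes of these lists in WT (background 11.1%) and for 1, 0, 2, 3 and 1 in Aβ0/0 (background 11.3%).

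**Figure D4:**
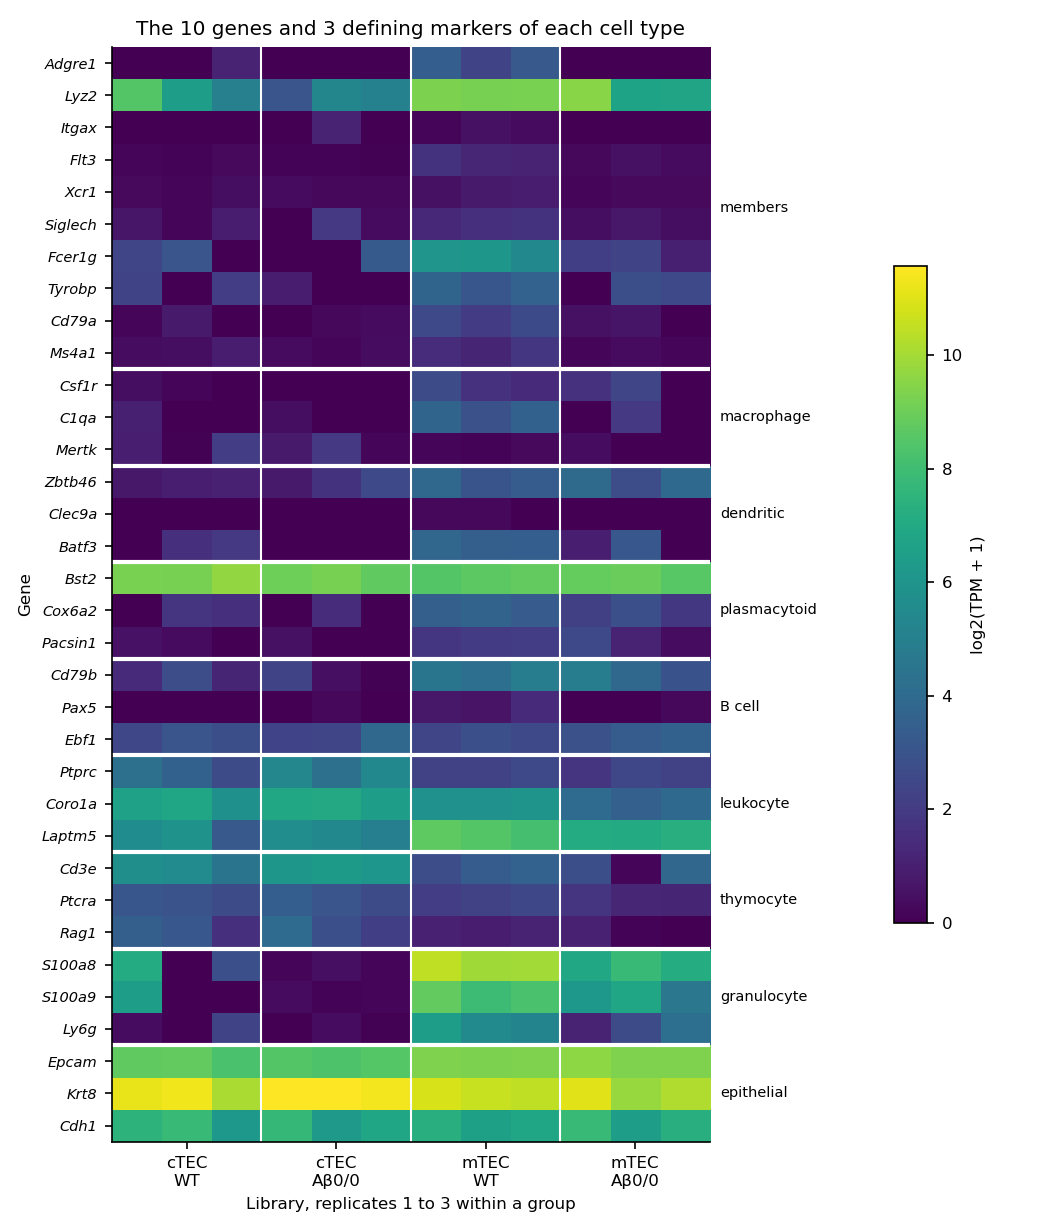
Level as log2(TPM + 1), by colour, of the 10 genes and of 3 defining markers each of macrophages, dendritic cells, plasmacytoid cells, B cells, leukocytes, thymocytes, granulocytes and epithelium, in the 12 libraries in columns by group and replicate. Epithelial markers such as Epcam, at 300.6 to 771.0 TPM, are high in every library, Ptprc and Cd3e are higher in cTEC, and the 10 genes are highest in WT mTEC apart from single libraries.

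Over the 12 libraries the pattern of the 10 genes was shared unequally. The 45 pairs had a Pearson r of log2(TPM + 1) between -0.0233 and 0.967, with a median of 0.649, and the highest was that of Adgre1 and Ms4a1. Libraries of 1 group share subset and genotype, so these values describe the grouping and carry no p. Genes outside the list with the most similar pattern were Gm12615, Caly and Tarm1 for Adgre1 (r from 0.978 to 0.982), 5730507C01Rik, Hp and Naaa for Lyz2 (0.916 to 0.951) and Psmb1, Psma6 and Ptx4 for Itgax (0.868 to 0.883). For Flt3 they were Hbb-y and Cntn1 (0.987 and 0.984), for Xcr1 Gje1, Gm2663 and Gm11544 (0.942 to 0.963) and for Siglech Mien1, Akr1b7 and Psma6 (0.879 to 0.944). Fcer1g was closest to Cdc25c, Pik3r6 and Mei4 (0.922 to 0.944) and Tyrobp to Gm14324, Ccl17 and Krt76 (0.886 to 0.902). The B cell genes were closest to Xkr9, Gm10354 and Pabpn1l for Cd79a (0.966 to 0.971) and to M1ap, Tarm1 and Usp50 for Ms4a1 (0.944 to 0.966).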

How the data were processed

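The 12 libraries were made by the authors from sorted TEC pools with the SMART-Seq v4 Ultra Low Input kit. The submitters' processing notes name bcl2fastq 2.20.0, Trim Galore, kallisto 0.43, DESeq2 and build mm10. The estimated counts deposited by the authors come from kallisto, which shares reads among transcripts. The TPM values deposited by the authors correct those counts for effective length. The deposited log2 values are regularized log2 counts (rlog) per gene, made by the authors from all libraries with DESeq2.

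Of 109282 transcripts, 107987 matched GENCODE M21 (GRCm38) and were summed to 34547 genes, while 1295, with 0.450% to 0.512% of the counts of a library, were left out. Sums were rounded to whole numbers. Within each subset or genotype, edgeR 4.0.16 (quasi-likelihood test, TMM, filterByExpr, Benjamini-Hochberg threshold of 0.05) was fitted to all genes in R 4.3.3. DESeq2 1.42.0 served as an alternative. The edgeR step, and not DESeq2, had first been tested on simulated data. A gene did not overlap when all libraries of 1 group lay above all of the other in TPM, counted among genes with any TPM above 0. Folds against groups at 0 used a floor of 3 counts per library. Intervals of counting error are not given for kallisto's estimated counts.

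The 10 genes, the marker lists and the tests were chosen with earlier results of these data known. Named besides the 10 were, of each list, the 2 genes of highest mean TPM and up to 3 of the largest difference that passed in a comparison (not all of them are printed), the 3 genes (2 are printed for Flt3) most similar to each of the 10 among those with a mean TPM of at least 1, H2-Ab1, and near-identical or overlapping genes. Other genes named were chosen after their values were seen. Among these are Klk1, Spi1, Ptprc, Psmb11, Elane, Trem2, Fcer1a, Cd79b and the defining markers drawn. Symbols held by 2 lists count in each. Some genes that the rule names are not reported here.

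The study's yield table gives cTEC and mTEC of 1 genotype and number as parts of 1 sort, which pairs them. After subtraction of each group's mean, the log2 values of such pairs correlated with r = 0.217, 0.0392 and 0.0801 in WT and 0.239, 0.0906 and 0.0554 in Aβ0/0. No 2 replicates agreed within sampling noise. Promoters are RefSeq GRCm38.p6 entries, present for 7 of the 10 genes, and coordinates are GRCm38. Python 3.11.15, pandas 2.3.3, numpy 2.4.6 and matplotlib 3.10.9 were used for the rest.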

Additional observations from a re-analysis of the deposited data

Results flagged for a closer look

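Cd40, the co-stimulatory receptor of B cells, dendritic cells and TEC and a gene of the marker lists, had groups of libraries apart in opposite directions in the subsets. In cTEC it held 22.1, 18.5 and 8.61 TPM in WT and 46.0, 57.0 and 27.8 in Aβ0/0, a log2 ratio of mean TPM (WT over Aβ0/0) of -1.41, and edgeR gave a log2 fold change of -1.45 with an adjusted p of 1.0. In mTEC it held 270.0, 218.2 and 201.4 TPM in WT and 55.0, 119.7 and 73.0 in Aβ0/0, a log2 ratio of 1.48, and edgeR gave 1.18 with an adjusted p of 0.202. The groups did not overlap in either subset, and neither comparison passed the test. The genotype effect in mTEC minus that in cTEC, an interaction term in an edgeR fit of all 12 libraries over 19461 genes, was 2.66 on the log2 scale, with an unadjusted p of 0.000822 and an adjusted p of 0.350, and did not pass either.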

How the results depend on the processing

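Calls over all genes moved strongly with the fit. In cTEC 3 genes differed between genotypes, against 7 without the filter on low counts, 121 with DESeq2, 16 with all 12 libraries in the fit, 0 with a replicate block and 1 to 3 without single libraries. In mTEC the number was 1054, against 27 without the filter, 2444 with DESeq2, 20 with all 12 libraries, 0 with a replicate block and 0 to 2377 without single libraries. It was 0 without any 1 of the WT libraries, 13 and 83 without Aβ0/0 replicates 3 and 2, and 2377 without Aβ0/0 replicate 1. Between subsets 4997 genes differed in WT (2760 with all 12 libraries, 3395 to 7572 without single libraries, 7572 without WT cTEC replicate 3) and 878 in Aβ0/0 (2779 with DESeq2, 1819 with all 12 libraries, 338 to 456 without single libraries). With the replicate block of shared sorts these were 3820 and 630. The study's yield table sets WT and Aβ0/0 side by side under each replicate number, so they may share a sorting session, which it does not say outright. Their deviations correlated with r = 0.244, -0.0387 and 0.0578 in cTEC and 0.231, 0.0795 and 0.0529 in mTEC, not all above 0.1, so that the block stayed an alternative for the genotypes.

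Of 310 refitted log2 fold changes of the 10 genes, 293 kept their sign. In the genotype comparison in mTEC and the subset comparison in WT 0 turned, in the subset comparison in Aβ0/0 11 of 60 turned (Xcr1, Siglech, Fcer1g and Ms4a1), and in the genotype comparison in cTEC 6 of 50 did. In cTEC, Xcr1 was -0.39 without WT cTEC replicate 3, in a range of -0.39 to 0.61 over single libraries left out. Siglech was 1.76 with the replicate block and 2.31 without Aβ0/0 cTEC replicate 2, in a range of -1.48 to 2.31. Fcer1g was -0.54 without WT cTEC replicate 2 and -0.26 without Aβ0/0 cTEC replicate 1 or replicate 2, in a range of -0.54 to 8.35. Lyz2 ranged from 1.15 to 2.98 and Ms4a1 from 0.39 to 1.75 over single libraries left out. The cause of these turns was not tested.

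The 9 genes wholly higher in WT mTEC stayed the same 9 in rlog values, in TMM-scaled CPM, in protein-coding transcripts alone and without any single library, except that Lyz2 joined them without Aβ0/0 mTEC replicate 1. Counting protein-coding transcripts alone, and leaving out libraries from these counts, were chosen after seeing the data. At 21.6 M to 35.9 M counts a library, a gene under about 1 TPM rests on few reads.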
